A study of Mus musculus with 17 samples.

Results

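Adiponectin receptor 2 (Adipor2), the nuclear receptor PPARα (Ppara), carnitine palmitoyltransferase 1a (Cpt1a) and lysosomal acid lipase (Lip1, now Lipa) were followed in liver of the inbred Lean and Fat mouse lines. The 4 genes were chosen from 284 mouse gene probes of the array for their place in adiponectin signalling and lipid breakdown and with their Lean over Fat ratios known, so these ratios are given as a description and nothing is supported with them. The question was whether pairs of mice with a high Adipor2 ratio also had a high ratio of Ppara, Cpt1a or Lip1. Lean males came from long selection for low body fat and Fat males from selection for high body fat out of the same base population, with CBA, JU and CFLP as the genetic background of both lines. Males of both lines were of the same adult age, ate the same maintenance chow and were killed after a short fast. No transgene or treatment was involved, and since each line is a single inbred line, the mice of a line stand for that line alone. RNA from 10 mice of each line was hybridised in 10 Lean and Fat pairs to Steroltalk arrays, with a dye for each line. These arrays carry cDNA probes for genes of cholesterol, drug and energy metabolism. Per the methods, dye swaps were made and arrays that failed quality control were left out. The 17 arrays kept hold 7 of the pairs in both dye orientations.

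Adiponectin is a hormone of fat tissue that acts on liver through the receptors AdipoR1 and AdipoR2, and AdipoR2 is known mainly for raising PPARα activity. PPARα pairs with RXR, binds direct repeats of a nuclear receptor site and switches on fatty acid oxidation during fasting. Cpt1a, a PPARα target, passes long-chain fatty acids into mitochondria and is the rate-controlling step of their oxidation, while lysosomal acid lipase frees fatty acids and cholesterol from the esters that lysosomes receive.

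The RefSeq promoter windows of Adipor2, Ppara and Cpt1a are shown because the question links the receptor to the transcription factor and to its target gene. Each window runs from 250 bases before to 50 bases after the start site on build GRCm38.p6, is written 5′ to 3′ along the gene, and has in capitals any match to the nuclear receptor core AGGTCA on either strand.
Adipor2, chr6:119388685-119388984, minus strand: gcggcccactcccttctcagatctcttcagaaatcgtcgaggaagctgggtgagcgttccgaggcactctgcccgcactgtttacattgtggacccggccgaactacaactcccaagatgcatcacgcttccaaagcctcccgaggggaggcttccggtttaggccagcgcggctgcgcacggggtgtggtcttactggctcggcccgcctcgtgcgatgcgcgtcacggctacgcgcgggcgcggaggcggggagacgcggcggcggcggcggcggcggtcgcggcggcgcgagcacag
Ppara, chr15:85735526-85735825, plus strand: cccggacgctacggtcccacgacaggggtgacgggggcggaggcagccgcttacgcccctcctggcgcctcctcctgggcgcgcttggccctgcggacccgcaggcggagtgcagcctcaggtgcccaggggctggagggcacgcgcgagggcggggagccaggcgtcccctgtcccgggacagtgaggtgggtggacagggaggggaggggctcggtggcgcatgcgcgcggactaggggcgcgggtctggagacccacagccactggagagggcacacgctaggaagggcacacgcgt
Cpt1a, chr19:3323051-3323350, plus strand: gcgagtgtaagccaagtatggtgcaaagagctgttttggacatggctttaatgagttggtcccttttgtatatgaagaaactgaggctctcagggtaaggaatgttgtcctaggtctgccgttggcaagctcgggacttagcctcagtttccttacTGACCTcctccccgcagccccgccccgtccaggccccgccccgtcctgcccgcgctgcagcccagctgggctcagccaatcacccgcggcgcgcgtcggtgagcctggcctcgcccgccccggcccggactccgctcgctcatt
Of these windows, that of Cpt1a held 1 match to AGGTCA, on the opposite strand and starting 94 bases before the start site, while those of Adipor2 and Ppara held none. The window of Lip1 (chr19:34527425-34527724, minus strand) held none either. A match was present in 16.3% of the 32851 windows in the RefSeq table. The full direct repeat, 2 such cores with 1 base between them, was in 0.0396% of the windows and in none of the 4. The E-box CACGTG was in 7.15% of all windows and the longer CLEAR element, which contains it and is known from lysosomal genes, in 0.326%, and neither was found in the 4 windows. Such a match is a run of letters and was not tested as a binding site.

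Values are log2 ratios of the Lean over the Fat channel after background correction and a fit to spiked control RNA, averaged over the 3 spots of a probe and over the arrays of a pair. Above-background signal was read in both channels on 17 of 17 arrays for Adipor2 and Lip1, and on 16 arrays in the Lean channel and 17 in the Fat channel for Ppara and Cpt1a, with 0 saturated spots. On the arrays as a whole, 34.9% to 78.8% of the mouse gene spots were above background in both channels. All 7 hepatocyte marker probes were above background on 17 of 17 arrays in both channels. Of the 6 adipocyte marker probes, that for the glucose transporter gene Slc2a4 was above background on 17 arrays in both channels and that for the adiponectin gene Adipoq on 12 arrays in the Lean and 11 in the Fat channel. The other 4, for Lep, Retn, Lipe and Pparg, were above background on 3 to 5 arrays in the Lean and 3 to 6 in the Fat channel. The mean normalized log2 intensity of the 6 adipocyte probes ran from 7.63 to 8.16 in Lean mice and from 7.57 to 8.19 in Fat mice. Of the macrophage and endothelium probes, those for Nos2, Saa3 and Cav1 were above background on 12 to 17 arrays in the Lean and 13 to 17 in the Fat channel. Both Msr1 probes and those for Nos3 and Vcam1 were so on 1 to 5 arrays in either channel. Of the 20 probes for hepatocyte, adipocyte, macrophage or endothelium genes 0 passed limma's test between lines, where 3.52% of all 284 probes passed. Of the same 20 probes 1 had an unadjusted p under 0.05, as did 15.1% of all probes. The marker probes near background could hardly show a difference. Whole liver was used, so a lower count of cells that make a transcript and less transcript per cell cannot be told apart.

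Adipor2 (probe ST_Mm_267) was higher in the Lean mouse of 9 of 10 pairs. Its log2 ratio in pairs 1 to 10 was 0.51, -0.15, 0.59, 0.22, 0.47, 0.18, 0.86, 0.75, 0.28 and 0.39. Pairs 7 and 8 had the highest ratios and pair 2 was the only one in which the Fat mouse was higher. The sign of pair 2 was set by 1 spot. On its array with Lean in Cy3 the 3 spots gave log2 ratios of -0.0019, 0.01 and -2.03, and the deviating spot had a local background of 10402 in the Fat channel beside 424 and 425 for the other spots, while the array with Lean in Cy5 gave 0.37. With such disagreeing spots left out, a choice made after seeing the data, pair 2 had a ratio of 0.19 and the Lean mouse was higher in 10 of 10 pairs. The mean was 0.41 ± 0.086 (SE, n = 10 pairs), a 1.33-fold higher level in Lean liver, and it was 0.44 ± 0.070 (SE, n = 10 pairs) without the disagreeing spots. On the normalized log2 intensity scale, Adipor2 ran from 9.76 over a median of 10.57 to 11.20 in Lean mice and from 9.54 over 10.17 to 10.74 in Fat mice. The 2 lines therefore overlapped over much of their range, and the difference showed within pairs. Both mice of a pair were read on the same arrays, so the range of a line may include differences between arrays, which was not tested.

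Ppara (probe ST_Mm_088, listed under its systematic name Nr1c1) showed no common direction. Its log2 ratio in pairs 1 to 10 was -0.24, -0.28, 0.15, 0.39, -1.08, -0.40, 0.59, -0.03, 0.03 and -0.16. The Lean mouse was higher in 4 pairs and lower in 6, with pair 5 lowest and pair 7 highest. The mean of -0.10 ± 0.13 (SE, n = 10 pairs) was smaller than its error, and it moved to 0.0066 without pair 5, to -0.18 without pair 7 and to 0.045 with median centring of each array. In normalized log2 intensity Ppara ran from 8.37 over a median of 8.76 to 9.20 in Lean mice and from 8.47 over 8.86 to 9.46 in Fat mice, where the highest value was the Fat mouse of pair 5.

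Cpt1a (probe ST_Mm_314) varied more between pairs than the other 3 genes. Its log2 ratio in pairs 1 to 10 was -0.44, -0.66, 0.04, 0.27, -1.16, -0.67, 1.11, -0.04, 0.07 and 0.0023. The Lean mouse was higher in 5 pairs and lower in 5, and pairs 5 and 7 were again at the ends. The mean was -0.15 ± 0.17 (SE, n = 10 pairs) and moved to -0.036 without pair 5, to -0.29 without pair 7 and to 0.022 with median centring. In normalized log2 intensity Cpt1a ran from 8.88 over a median of 10.12 to 11.11 in Lean mice and from 9.54 over 10.18 to 10.73 in Fat mice. The SD of the ratio over pairs was 0.62 for Cpt1a and 0.46 for Ppara, the 10th and 21st highest of the 284 probes, against a median SD of 0.21 over all probes.

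Lip1 (probe ST_Mm_072) was higher in the Lean mouse of 9 of 10 pairs. Its log2 ratio in pairs 1 to 10 was 0.47, 0.19, 0.39, 0.17, 0.43, -0.15, 0.18, 0.54, 0.31 and 0.08. Here pair 6 was the only one in which the Fat mouse was higher. The mean was 0.26 ± 0.066 (SE, n = 10 pairs), a 1.20-fold higher level in Lean liver. In normalized log2 intensity Lip1 ran from 9.46 over a median of 9.86 to 10.29 in Lean mice and from 9.26 over 9.68 to 9.92 in Fat mice, so the lines overlapped here too.

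**Figure D1:**
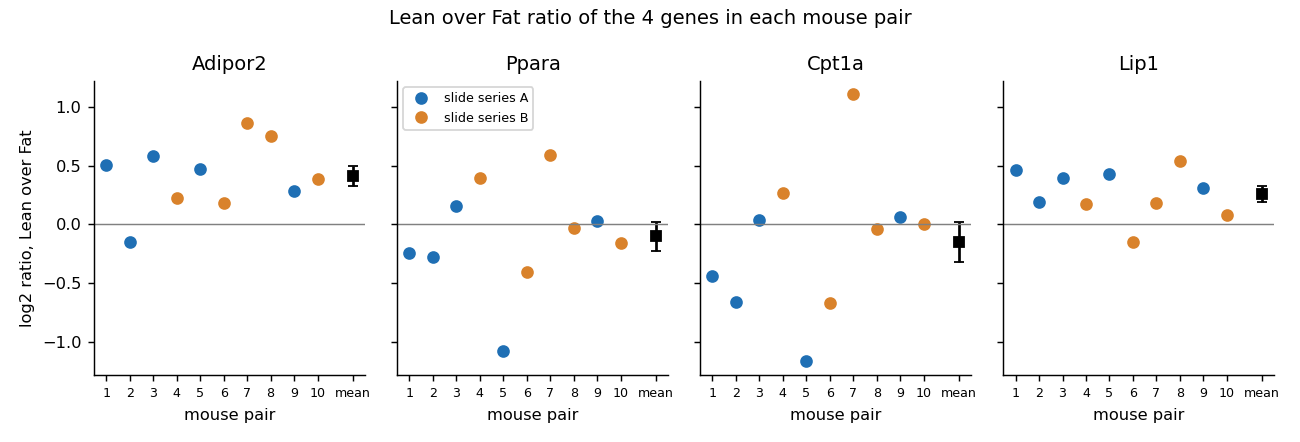
Log2 ratio of Lean over Fat (vertical axis) in each of the 10 mouse pairs (horizontal axis) for the 4 genes, with points coloured by slide series and a black square for the mean with its SE. Adipor2 and Lip1 lie above 0 in 9 of 10 pairs each, the low Adipor2 point of pair 2 rests on 1 disagreeing spot, and Ppara and Cpt1a spread to both sides of 0 with pair 5 lowest and pair 7 highest in both.

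**Figure D2:**
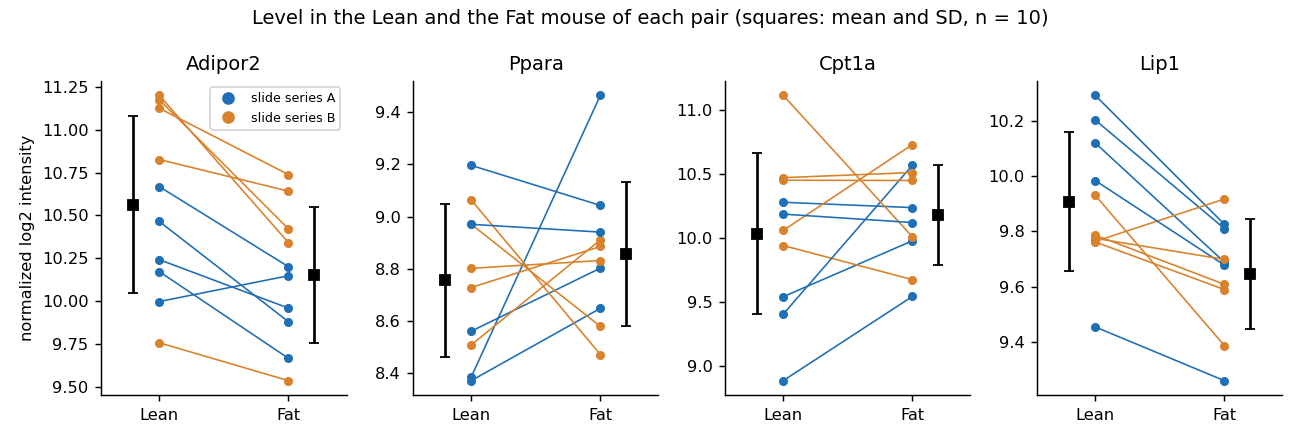
Normalized log2 intensity (vertical axis) in the Lean and the Fat mouse of each pair, joined by a line, with black squares for the mean and SD of 10 mice and colours for slide series. The lines of Adipor2 and Lip1 slope down from Lean to Fat in 9 of 10 pairs each, and the lines of Ppara and Cpt1a cross.

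Of the 284 probes 3.52% passed limma's moderated test at an adjusted p of 0.05 (2.82% higher and 0.704% lower in Lean liver). Adipor2 and Lip1 were among them, but this contrast helped choose the genes, so nothing is read from their calls. The median ratio over all 284 probes was 0.04 and 69.4% of the means lay above 0. Of 20 alternative treatments of the data, the call was lost in 3 for Adipor2 and in 12 for Lip1, where 8 of those 12 left out 1 pair. The mean ratio of Adipor2 ran from 0.36 to 0.58 over 20 alternatives and that of Lip1 from 0.23 to 0.47, highest for both with median centring.

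No label names a slide batch. The slides were split by the first digits of their slide number, with those of a common start in series A and all others in series B. These series hold 5 mouse pairs each. Within them the mean Adipor2 ratio was 0.34 in series A and 0.48 in series B, and that of Lip1 was 0.36 in series A and 0.16 in series B. The mean Ppara ratio was -0.28 in series A and 0.08 in series B, and that of Cpt1a was -0.43 in series A and 0.13 in series B. Thus the means of Adipor2 and Lip1 had the same sign in both series and those of Ppara and Cpt1a did not. Each series holds whole pairs of both lines, and the part of the series in these values was not tested further.

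The dye-swapped pairs gave each ratio a repeat on a separate array. The largest difference of the 4 genes between dye orientations was that of Cpt1a, which did not pass after adjustment, with a mean log2 ratio of -0.53 where Lean was in Cy5 and 0.0077 where Lean was in Cy3, a difference of -0.54 ± 0.44 (SD, n = 7 pairs) that was lower in 6 of 7 pairs (exact sign-flip permutation test, two-sided, p = 0.0469, adjusted over the 4 genes p = 0.188). The difference for Adipor2 was -0.24 ± 0.78 (SD, n = 7; exact sign-flip permutation p = 0.391). The difference for Ppara was -0.16 ± 0.50 (SD, n = 7; exact sign-flip permutation p = 0.484) and for Lip1 -0.28 ± 0.44 (SD, n = 7; exact sign-flip permutation p = 0.156). Over all probes the median difference was 0.20, and 86 of 284 probes had an unadjusted p under 0.05 in the same test, and pairs 4, 9 and 10 were read in a single orientation.

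The agreement of the swapped arrays on the order of pairs was highest for Cpt1a and passed for none of the 4 genes after adjustment. The 2 arrays of a pair correlated over 7 pairs with r = 0.83 for Cpt1a (exact permutation p = 0.0155, adjusted over 4 genes p = 0.0619; rho = 0.75, exact permutation p = 0.0663; r = 0.85 without the 2 farthest pairs). For Ppara r was 0.63 (exact permutation p = 0.125, adjusted p = 0.250; rho = 0.57, exact permutation p = 0.200; r = 0.66 without the 2 farthest pairs). For Adipor2 r was -0.14 (exact permutation p = 0.733; rho = -0.07, exact permutation p = 0.906) and for Lip1 0.08 (exact permutation p = 0.871; rho = -0.14, exact permutation p = 0.783). The median of this r over all 284 probes was -0.14, and 5 of the 283 other probes had a higher r than Cpt1a. Adipor2 and Lip1 thus had a positive mean ratio in both orientations, 0.34 and 0.58 for Adipor2 and 0.15 and 0.43 for Lip1 with Lean in Cy5 and in Cy3, while r between the arrays was near 0 for either gene. Without the disagreeing spot, Adipor2 had r = -0.18 between arrays (exact permutation p = 0.720) and a mean of 0.67 with Lean in Cy3.

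**Figure D3:**
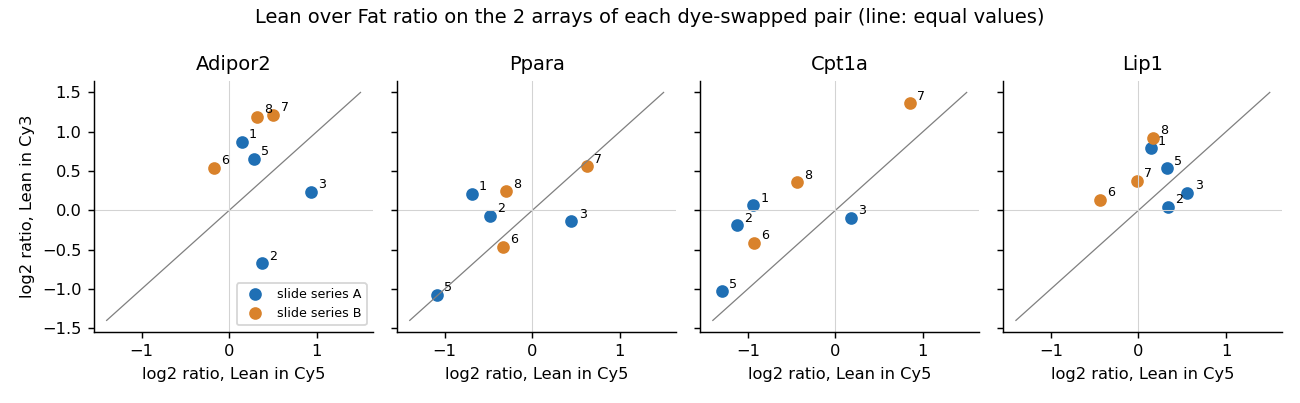
Log2 ratio of Lean over Fat on the array with Lean in Cy5 (horizontal axis) and on the array with Lean in Cy3 (vertical axis) for each of the 7 dye-swapped pairs, numbered and coloured by slide series, with a line of equal values. The values of r are 0.83 for Cpt1a, 0.63 for Ppara, -0.14 for Adipor2 and 0.08 for Lip1, and pair 2 of Adipor2 with Lean in Cy3 holds the disagreeing spot.

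No relation of Adipor2 with another of the 4 genes passed a threshold after adjustment. For Adipor2, 9 relations were set, 3 across the pair ratios and 3 each among the Lean and the Fat mice, all tested two-sided with 100000 permutations. Across 10 pairs Adipor2 and Ppara had r = 0.30 (permutation p = 0.394, adjusted p = 0.709) and rho = 0.44 (permutation p = 0.203, adjusted p = 0.456). Without pairs 2 and 7, the farthest in Adipor2, r was -0.06, and centred on slide series it was 0.22. Without the disagreeing spots r was 0.32 with Ppara, 0.50 with Cpt1a and 0.53 with Lip1 over 10 pairs (permutation p = 0.379 for Ppara, 0.135 for Cpt1a and 0.116 for Lip1, unadjusted). Adipor2 and Ppara had the same sign in 5 of 10 pairs, and pair 5 had 0.47 for Adipor2 beside -1.08 for Ppara.

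Adipor2 and Cpt1a had r = 0.51 across pairs (permutation p = 0.128, adjusted p = 0.384) and rho = 0.35 (permutation p = 0.329, adjusted p = 0.592). This r was 0.0053 without pairs 2 and 7 and 0.46 centred on slide series, so it rested on those pairs. Adipor2 and Lip1 had r = 0.47 (permutation p = 0.173, adjusted p = 0.390) and rho = 0.54 (permutation p = 0.113, adjusted p = 0.338). Here r was 0.81 without pairs 2 and 7 (exact permutation p = 0.0145) and 0.70 centred on slide series (permutation p = 0.0205), both unadjusted. The sign of both genes was the same in 8 of 10 pairs. Each gene alone was positive in 9 of 10 pairs and was chosen with its ratios known. The count of shared signs is therefore no evidence of a relation.

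Among the mice of each line Adipor2 had its highest r in level with Cpt1a. In Lean mice r was 0.67 (permutation p = 0.0329, adjusted p = 0.192) and rho 0.77 (permutation p = 0.0125, adjusted p = 0.113), with r = 0.70 without the 2 farthest mice (exact permutation p = 0.0574) and 0.52 centred on slide series (permutation p = 0.110). In Fat mice r was 0.65 (permutation p = 0.0426, adjusted p = 0.192) and rho 0.66 (permutation p = 0.0436, adjusted p = 0.196), with r = 0.52 without the 2 farthest mice (exact permutation p = 0.188) and 0.63 centred on slide series (permutation p = 0.0683). The unadjusted p of r was under 0.05 in both lines, and it was above 0.05 in both after adjustment, without the 2 farthest mice and when centred on slide series. The Lean and the Fat mouse of a pair were read on the same arrays, so the values of the lines are not separate readings. The level of Adipor2 had r = 0.08 with Ppara in Lean mice and 0.13 in Fat mice (permutation p = 0.815 in Lean and 0.741 in Fat mice; rho = 0.18 and 0.14, permutation p = 0.632 and 0.707; adjusted p = 0.968 in both lines). With Lip1 it had r = 0.01 in Lean mice and -0.02 in Fat mice (permutation p = 0.968 in Lean and 0.959 in Fat mice; rho = 0.12 and 0.09, permutation p = 0.758 and 0.810; adjusted p = 0.968 in both lines).

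Ppara and Cpt1a moved together across pairs. This relation was added after the values had been seen, and with the others added makes 18 relations in all. Over 10 pairs r was 0.94 (permutation p = 0.00019, adjusted over 18 relations p = 0.00342) and rho 0.98 (permutation p = 5e-05, adjusted p = 0.0009), with the same sign in 9 of 10 pairs. Without pairs 5 and 7 it was 0.89 (exact permutation p = 0.00181), and centred on slide series 0.93 (permutation p = 0.00031). Leaving out each pair in turn kept r between 0.94 and 0.95, and over all 21 alternatives it ran from 0.89 to 0.96. The Cpt1a ratio changed by 1.27 for each 1.0 of the Ppara ratio on the log2 scale. Lip1 followed neither, with r = -0.10 to Ppara (permutation p = 0.777, adjusted p = 0.951; rho = -0.08, permutation p = 0.838) and r = -0.07 to Cpt1a (permutation p = 0.845, adjusted p = 0.951; rho = -0.19, permutation p = 0.608), and r was 0.34 and 0.33 without pairs 5 and 7.

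In level, Ppara and Cpt1a had r = 0.74 in Lean mice (permutation p = 0.0133, adjusted p = 0.120; rho = 0.70, permutation p = 0.0300) and r = 0.64 in Fat mice (permutation p = 0.0425, adjusted p = 0.153; rho = 0.68, permutation p = 0.0351). Centred on slide series r was 0.80 in Lean and 0.88 in Fat mice, and without the 2 farthest mice 0.72 in Lean and 0.71 in Fat mice. The relation was thus positive in both lines as well as in their ratio, but passed after adjustment in the ratio alone. The levels of both lines were read on the same arrays and the ratio is their difference, so these are not separate readings.

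**Figure D4:**
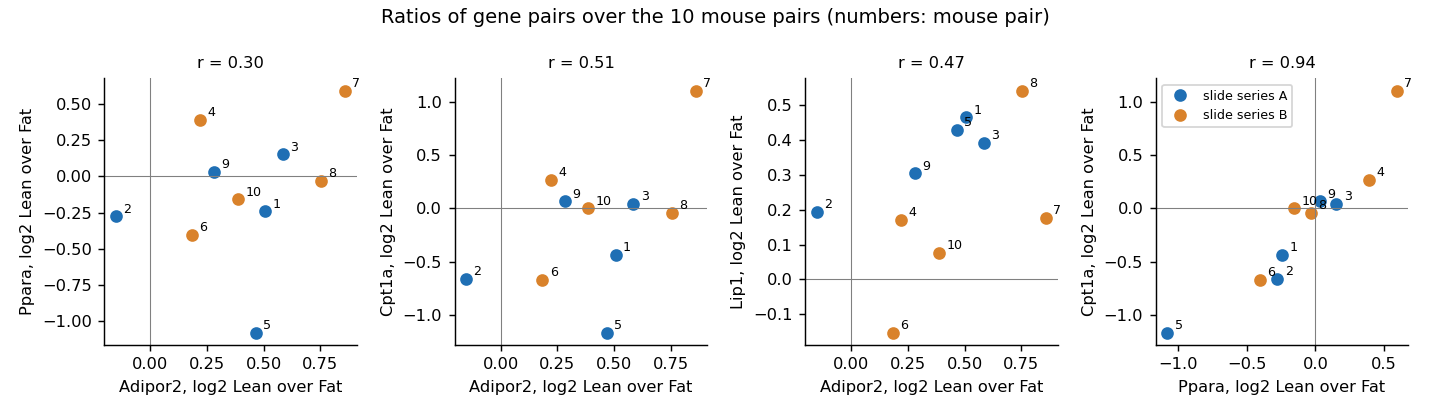
Log2 ratios of Lean over Fat of gene pairs over the 10 mouse pairs, numbered by pair and coloured by slide series, with both axes on the log2 scale. Ppara and Cpt1a lie along a rising line (r = 0.94), and the panels of Adipor2 with Ppara, Cpt1a and Lip1 are scattered (r = 0.30, 0.51 and 0.47).

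Genes read on one array share that array's errors, so the relations were also taken with each gene read on a different array of the dye-swapped pairs, in a family of 16 relations added after the values had been seen. Read on the same array, Ppara and Cpt1a had r = 0.94 with Lean in Cy5 (exact permutation p = 0.000992, adjusted p = 0.0159, n = 7; rho = 0.96, exact permutation p = 0.00278) and r = 0.92 with Lean in Cy3 (exact permutation p = 0.00476, adjusted p = 0.0381, n = 7; rho = 0.96, exact permutation p = 0.00278). Read on different arrays, r was 0.75 with Ppara from the array with Lean in Cy5 (exact permutation p = 0.0472, adjusted p = 0.181, n = 7; rho = 0.68, exact permutation p = 0.110) and 0.66 with Ppara from the array with Lean in Cy3 (exact permutation p = 0.104, adjusted p = 0.277, n = 7; rho = 0.61, exact permutation p = 0.167). Without the 2 farthest pairs these became 0.73 and 0.07. The different-array values were positive, smaller than the same-array ones and did not pass after adjustment. On the same array, 7 of the other probes with Lean in Cy5 and 4 with Lean in Cy3 had a higher r with Ppara than Cpt1a had. The median probe there had r = 0.51 and 0.62. Across arrays, 2 and 3 of the other probes had a higher r with Ppara than Cpt1a had, where the median probe had r = 0.20 and -0.0091.

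For Adipor2 and Lip1 the sign of r differed between the same-array and different-array readings of all 7 pairs. On the same array r was 0.79 with Lean in Cy5 (exact permutation p = 0.0462, adjusted p = 0.181, n = 7; rho = 0.61, exact permutation p = 0.167; r = -0.36 without the 2 farthest pairs) and 0.72 with Lean in Cy3 (exact permutation p = 0.0565, adjusted p = 0.181, n = 7; rho = 0.75, exact permutation p = 0.0663; r = 0.90 without the 2 farthest pairs). The median r of all other probes with Adipor2 on the same array was 0.74 with Lean in Cy5, where 97 of them had a higher r than Lip1, and 0.07 with Lean in Cy3, where 25 did. On different arrays it was -0.12 with Adipor2 from the array with Lean in Cy5 (exact permutation p = 0.807, n = 7; rho = -0.18, exact permutation p = 0.713; r = -0.55 without the 2 farthest pairs) and -0.36 with Adipor2 from the array with Lean in Cy3 (exact permutation p = 0.410, n = 7; rho = -0.57, exact permutation p = 0.200; r = -0.19 without the 2 farthest pairs). The same-array value with Lean in Cy5 thus rested on 2 pairs, none of the 4 values passed after adjustment, and without the disagreeing spots they were 0.79, 0.75, -0.12 and -0.36. Adipor2 with Ppara gave 0.24 and 0.16 on different arrays, and with Cpt1a 0.28 and 0.42, with exact permutation p of 0.359 to 0.746 over these 4 values (n = 7). Without the 2 farthest pairs, r with Ppara was 0.33 and -0.46, and with Cpt1a 0.59 and -0.31, so the values with Adipor2 from the array with Lean in Cy3 turned negative.

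By r over the 10 pairs, each of Ppara and Cpt1a was the closest of 283 other probes to the other. The probe next closest to Ppara was Abcg5 (r = 0.93), which exports sterols into bile, and next closest to Cpt1a was Slc10a1 (r = 0.90), the bile acid uptake carrier. The median r over the other probes was 0.41 for Ppara and 0.34 for Cpt1a, and 235 and 221 of the 283 values were above 0. Closest to Adipor2 were complement C4b (r = 0.88), the nuclear receptor Nr5a2 (0.85), apolipoprotein Apoa4 (0.82), the kinase Jak1 (0.76) and the growth factor Igf1 (0.70), against a median of 0.12. Without the disagreeing spots the closest were Apoa4 (0.79), C4b (0.78), C3 (0.77) and Nr5a2 (0.73), followed by the housekeeping genes Gapdh (0.70) and Ppia (0.69). C4b itself was higher in Lean liver with a mean log2 ratio of 1.34 (limma adjusted p = 4.42e-06). The mean ratios of Nr5a2, Apoa4, Jak1 and Igf1 were between -0.02 and 0.13 and did not pass. In the order with all spots Cpt1a stood 26th, Lip1 35th and Ppara 77th of the 283 probes. At the other end were Soat1, which esterifies cholesterol (r = -0.74), Pparg (-0.68) and the sterol regulator Srebf2 (-0.64), all read near background, with above-background signal in the Lean channel on 0, 5 and 2 of 17 arrays and in the Fat channel on 1, 6 and 2. None of these 3 was among the 3 lowest without the disagreeing spots, which numbered 160 of 4828 probe readings. Closest to Lip1 were Ppp1r3c, a glycogen targeting subunit (r = 0.91), and the circadian regulator Clock (r = 0.89), against a median of 0.08. All these r values come from genes read on shared arrays. Apart from Ppara with Cpt1a, those of the closest probes were not tested or taken across different arrays. Between the arrays of a pair r was only -0.14 for Adipor2 and 0.08 for Lip1, so the closeness of probes to either may include shared array error.

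**Figure D5:**
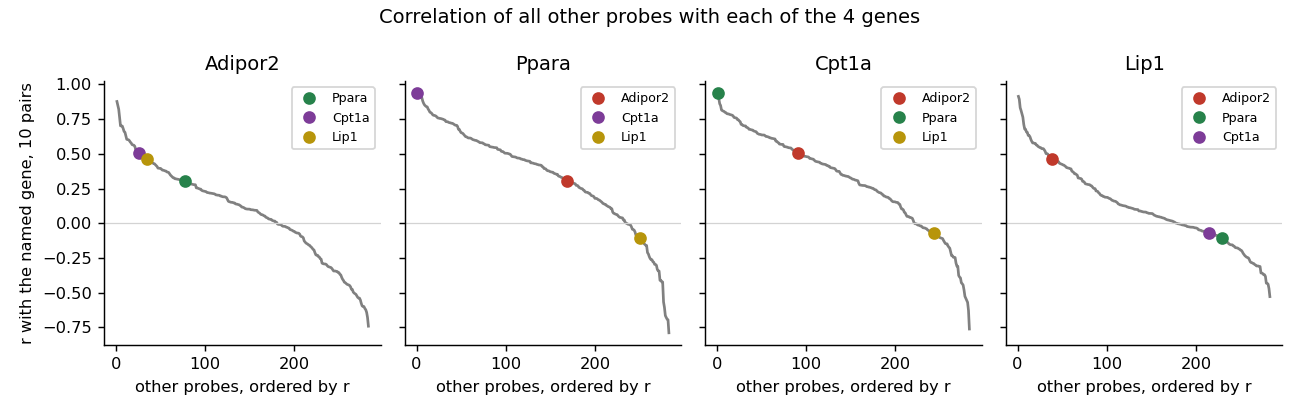
Pearson r over the 10 pairs (vertical axis) of each of the 283 other probes with the gene named above the panel, ordered by r (horizontal axis), with coloured points for the other 3 of the 4 genes. Ppara and Cpt1a stand at the top of each other's order, and Adipor2 has Cpt1a 26th, Lip1 35th and Ppara 77th.

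Around the receptor, the 8 probes for 7 adiponectin signalling genes had a median log2 ratio of 0.05, against 0.04 over all probes, and apart from Adipor2 itself 0 of them passed the test or had an unadjusted p under 0.05, where 3.52% of all probes passed and 15.1% had such an unadjusted p. Adipor1, the paralogous receptor, had a ratio of -0.07 ± 0.056 (SE, limma adjusted p = 0.632), and Adipoq, the hormone itself, which liver hardly makes, had 0.01 ± 0.069 (SE, adjusted p = 0.917) with signal above background on 12 arrays in Lean and 11 in Fat. The AMP-activated kinase subunit Prkaa1 had 0.05 ± 0.045 (SE, adjusted p = 0.627) and the deacetylase Sirt1 0.06 ± 0.047 (SE, adjusted p = 0.577). The coactivator Ppargc1a had 0.12 ± 0.072 and 0.05 ± 0.077 on its 2 probes (SE, adjusted p = 0.541 and 0.781). Across pairs Adipor1 had r = 0.85 with Ppara, 0.76 with Cpt1a and 0.23 with Adipor2. The 2 Ppargc1a probes had r = 0.70 and 0.60 with Adipor2, 0.61 and 0.76 with Ppara, and 0.68 and 0.77 with Cpt1a. These correlations were not tested and share arrays.

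Around the transcription factor, 0 of 12 probes for 11 PPARα partners and relatives passed (8 above 0, median 0.05, limma adjusted p from 0.541 to 0.981, and 0 at an unadjusted p under 0.05), where 3.52% of all probes passed and 15.1% had such an unadjusted p, so the count does not set them apart. Across pairs their r with Ppara ran from -0.28 for Ppard to 0.84 for Rxra, against a median of 0.41 over all probes. Of the 4 PPARα target genes 0 passed (1 above 0, median -0.08, limma adjusted p from 0.601 to 0.823, and 0 at an unadjusted p under 0.05), again beside 3.52% and 15.1% of all probes, and after Cpt1a the largest mean was that of Apoa5, which promotes clearance of plasma triglyceride (-0.11 ± 0.089, SE, adjusted p = 0.601). Apoa5 had r = 0.78 with Ppara, beside the same median.

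Around the lipase, the 7 lipid hydrolysis and fatty acid oxidation probes had 4 means above 0 and a median of 0.06, and the 8 for cholesteryl ester handling had 6 above 0 and a median of 0.06. Apart from Lip1 itself 0 probes of either list passed, where 3.52% of all probes did, and 1 had an unadjusted p under 0.05, as did 15.1% of all probes. The remaining adjusted p values of both lists ran from 0.316 to 0.823. Of the marker lists, 7 hepatocyte probes had a median of 0.08 with Fgb (0.30, adjusted p = 0.239) and Apoa1 (0.20, adjusted p = 0.546) farthest from 0. The 6 adipocyte probes had a median of 0.04 with Slc2a4 (0.10, adjusted p = 0.601) and Pparg (0.08, adjusted p = 0.740) farthest. The 4 macrophage probes had a median of 0.02 with Msr1 probe ST_Mm_207 (0.10, limma adjusted p = 0.584) and Saa3 (0.04, adjusted p = 0.824) farthest. Msr1 probe ST_Mm_208 had -0.0073, and both Msr1 probes were above background on only 1 or 2 arrays per channel. The 3 endothelium probes had a median of 0.11 with Nos3 (0.11, limma adjusted p = 0.541) and Cav1 (0.11, adjusted p = 0.548) farthest, while Vcam1 had -0.06. Signal was above background on 1 array per channel for Nos3, 5 for Vcam1 and 15 for Cav1.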

How the data were processed

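The 17 arrays each held liver RNA of 1 Lean and 1 Fat mouse, and 7 of the 10 pairs were read in both dye orientations. Per the methods, RNA was extracted in batches of a Fat and a Lean sample, samples were coupled by similar RNA quality, and control RNAs were spiked in. The deposited scanner files hold linear spot intensity and local background per channel, quantified by the authors in Array-Pro Analyzer and not normalized. The deposited value table holds log2 ratios that the authors normalized by LOWESS to spike-ins, and its centring and scale are unknown here (column medians -0.458 to 0.597, r to the values below 0.43 to 0.98 per array). The median of this r was 0.93. The value of 0.43 was that of pair 2 with Lean in Cy3, and the next lowest was 0.84. The mean of 6 of the 8 spiked ratio controls had another sign in the value table than in the scanner files, so that table served as an alternative. The Lean channel was taken from the labels, and the brightest spot lay in the channel labelled Cy5 on 17 of 17 arrays.

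Mean intensities were corrected by normexp (offset 50) and fitted by LOWESS (span 0.3) to 198 control spots in limma 3.58.1 (R 4.3.3). Spots, then arrays of a pair, were averaged, and the 10 pair ratios of 284 mouse gene probes were tested against 0 with lmFit and eBayes, two-sided, with Benjamini-Hochberg adjustment at 0.05. Levels per mouse came from the LOWESS-fitted channels scaled to a common average (Aquantile). A spot counted as above background at 2 background standard deviations. Relations were tested in Python 3.11.15 with permutations of pairs or mice, exact below 10 values. The scripts were tested on simulated data, in which estimated ratios lay nearer to 0 than the planted ones, so ratios here may be understated. The part of the offset in this was not tested. The p-values measure the spread between these pairs, and the number of arrays limits the precision. Where the 3 spots of a probe on an array had an SD over 0.5, the spot farthest from their median was left out in an alternative added after seeing the data.

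The members and lists were chosen with earlier results of these data known. The genes named were the 4 members, the passing genes of each list or else the 2 with the largest mean ratios, all adiponectin signalling genes, the 5 closest and 3 least close probes to Adipor2 by r and the 2 closest to each other member. Rxra and Ppard, and genes named without the disagreeing spots, were named after their values were seen. Symbols were updated through RefSeq, where Nr1c1 is Ppara. The RefSeq windows of all 4 members were matched by symbol. Lip1 was read as Lipa through the accession that the study lists for it.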

Additional observations from a re-analysis of the deposited data

How the results depend on the processing

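The r of Ppara with Cpt1a passed its unadjusted threshold in all 21 alternatives. The r of Adipor2 with Ppara was positive in 19 of 21 alternatives, and it was -0.033 with LOWESS on all gene spots and -0.057 with the 2 farthest pairs left out. The r of Adipor2 with Cpt1a passed an unadjusted 0.05 with plain background subtraction (0.67, permutation p = 0.0345), with median centring (0.67, permutation p = 0.0332) and without pair 5 (0.67, exact permutation p = 0.0466). That of Adipor2 with Lip1 did so with median centring (0.90, permutation p = 0.00022), with the authors' value table (0.69, permutation p = 0.0268), centred on slide series (0.70) and with the 2 farthest pairs left out (0.81). Leaving out 1 pair gave r from 0.03 to 0.53 for Ppara, 0.22 to 0.67 for Cpt1a and 0.34 to 0.65 for Lip1. The causes of these changes were not tested.

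The count of probes past the adjusted threshold was 10 (8 higher, 2 lower). It was 6 with plain background subtraction (3 higher, 3 lower), 5 with median centring (3 higher, 2 lower), 5 with the dye-swapped pairs alone and 6 with the methods' t-test after Benjamini-Hochberg adjustment, against 35 at its unadjusted threshold. Without background subtraction it was 15 (8 higher, 7 lower), and over single pairs left out 7 to 11. Every fit was paired, since each value is a ratio within a pair of mice, so no replicate block was added. Only 34.9% of gene spots were above background on the array of pair 2 with Lean in Cy3, which limits the dim probes. That array was not the dimmest. Its median signal was 185 in the Lean and 712 in the Fat channel, beside medians over the arrays of 204 and 184. It also held the disagreeing Adipor2 spot. In its Lean channel 0 of 3 Ppara spots and 1 of 3 Cpt1a spots were above background. The cause of its low share was not tested.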
